A study of Mus musculus with 15 samples.

Results

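Eicosanoids are signalling lipids made from arachidonic acid, and 10 mouse genes that make or sense them are described here: Hpgds, Ptgs1, Ptgs2, Ptgdr2, Ptger2, Ptger4, Alox5, Alox5ap, Ltc4s and Cysltr1. The genes were listed by name for their role, with no threshold on a measured value but with earlier results of these data known, from the 24089 gene symbols (24690 entries) counted by RNA sequencing in group 2 innate lymphoid cells (ILC2s). Their transcripts were compared between cells with and without the TGF-β receptor gene Tgfbr2, in the gut and in the bone marrow. ILC2s are tissue-resident lymphocytes that release type 2 cytokines, and ILC2p are their precursors in bone marrow (BM).

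A pair of enzyme branches opens the pathway. The cyclooxygenases, Ptgs1 and Ptgs2, start prostaglandin synthesis, and Hpgds then makes PGD2. 5-lipoxygenase (Alox5), presented with its substrate by the membrane protein Alox5ap, starts leukotriene synthesis, and Ltc4s then makes the first cysteinyl leukotriene. PGD2 acts on ILC2s through the receptor encoded by Ptgdr2 (CRTH2, older symbol Gpr44), PGE2 acts through the receptors of Ptger2 and Ptger4, and cysteinyl leukotrienes act through the receptor of Cysltr1. In ILC2s, PGD2 and cysteinyl leukotrienes are known to promote cytokine release, and PGE2 is known to restrain it.

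All 15 libraries came from C57BL/6 mice that carried floxed Tgfbr2 alleles (Tgfbr2 f/f) and a tamoxifen-inducible ER-Cre, so WT and Tgfbr2-/- cells shared both. WT mice received oil and Tgfbr2-/- mice received tamoxifen at 1 mg a day for 5 days, at 8 to 12 weeks of age, so an effect of tamoxifen itself and of the deletion cannot be told apart. ER-Cre acts in every cell type, not in ILC2s alone. Lamina propria (LP) ILC2s of the gut (CD45+Lin-CD127+Sca1+CD25+KLRG1+) were sorted 1 day after the last dose. BM ILC2p (CD45.2+Lin-CD127+α4β7+CD25+) were sorted 6 weeks after irradiated CD45.1+ hosts received marrow of treated CD45.2+ donors mixed with CD45.1+ marrow. There were 4 WT and 3 Tgfbr2-/- LP libraries, and 4 WT and 4 Tgfbr2-/- BM libraries, each set made in 2 experiments. Experiments were numbered 1 and 2 for each cell type, and the labels do not state whether any was shared. A difference between LP ILC2s and BM ILC2p therefore cannot be told apart from tissue, host, time since treatment or experiment. The labels do not state that replicates came from separate animals, and p-values therefore measure the spread between these libraries.

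Total counts per library ran from 12997489 to 22350339 in WT LP ILC2s, from 12167066 to 32114265 in Tgfbr2-/- LP ILC2s, from 12276824 to 35961215 in WT BM ILC2p and from 10957021 to 31993992 in Tgfbr2-/- BM ILC2p. Levels are given as CPM, the share of a library's counts scaled over all 15 libraries by TMM, or, where genes are compared with each other, as the deposited RPKM, which is corrected for transcript length. A floor of 3 counts corresponded to between 0.0727 and 0.311 CPM, depending on the library, and covers counting error only. In bulk RNA, fewer cells of a type and less RNA per cell cannot be told apart.

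The whole-gene count did not separate the genotypes at the targeted gene. Tgfbr2 stood at 172, 262, 147 and 206 CPM in WT LP ILC2s and at 206, 184 and 96.1 CPM in Tgfbr2-/- LP ILC2s. WT BM ILC2p had 0.714, 233, 107 and 188 CPM, and Tgfbr2-/- BM ILC2p had 87.2, 130.0, 30.8 and 218 CPM. The groups overlapped in both cell types. Reads were summed over full transcripts, so a loss of the floxed part alone would not show, and these counts do not check the genotype labels.

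Markers of other cells moved with genotype in the bone marrow, and these values stand beside every BM result below. The ILC2 list was present in all libraries, with 9 to 12 of 12 genes at 1 CPM or more in each BM library and 12 of 12 in each LP library. The 7 neutrophil genes summed to 781, 1546, 911 and 1459 CPM in WT BM ILC2p and to 88796, 73920, 73150 and 85154 CPM in Tgfbr2-/- BM ILC2p, where S100a8 was the most abundant. All 7 were at 1 CPM or more in every BM library, while their sum did not exceed 3.65 CPM in any LP library. The 6 monocyte or macrophage genes measured summed to between 42.7 and 79.2 CPM in WT and to between 11363 and 12944 CPM in Tgfbr2-/- BM ILC2p, mostly Lyz2. The 5 basophil genes summed to between 2.44 and 7.75 CPM in WT and to between 994 and 1418 CPM in Tgfbr2-/- BM ILC2p, led by Prss34, with the basophil receptor genes Ms4a2 and Cd200r3 each at 0 in 3 of the 4 libraries. The 10 mast cell genes summed to between 234 and 310.2 CPM in WT and to between 1158 and 1604 CPM in Tgfbr2-/- BM ILC2p, with 3 of 10 at 1 CPM or more in every BM library. Hdc, the histamine-forming enzyme also found in basophils, led the Tgfbr2-/- sums at between 896 and 1234 CPM against between 2.21 and 21.1 CPM in WT, while the proteases Mcpt1, Mcpt2, Mcpt4, Tpsb2 and Cma1 were at 0 in every library. The 6 eosinophil genes measured summed to 376, 20.3, 402 and 14.2 CPM in Tgfbr2-/- BM ILC2p, led by Prg2 in the 2 highest, and to between 0.349 and 6.18 CPM in WT. Ear1 (4.29 to 70.7 against 0.254 CPM or less) and Ear2 (0.932 to 9.24 against 0.113 CPM or less) lay above WT. Prg2 and Epx overlapped WT. Siglecf did not exceed 0.155 CPM and Ccr3 2.89 CPM, against up to 1.19 and 4.41 CPM in WT. The 5 genes of NK cells and ILC1 summed to 153, 133, 48.5 and 178 CPM in Tgfbr2-/- and to 0.446, 18.4, 0.565 and 8.53 CPM in WT BM ILC2p. In LP ILC2s, the marker list without overlap between genotypes was that of endothelium (3 genes), with WT sums of 181, 208, 100.1 and 218 CPM and Tgfbr2-/- sums of 70.8, 72.6 and 53.9 CPM. Most of each sum was Pecam1, at 99.5 to 208 CPM in WT and 53.2 to 72.6 CPM in Tgfbr2-/- libraries. Of the other endothelial genes, Cdh5 was at 0 in every LP library but WT experiment 2 replicate 2, and Kdr in every LP library of experiment 1. Single markers without overlap there included Klrb1c of NK cells, with 2.02 to 7.19 CPM for WT and 13.9 to 29.3 CPM for Tgfbr2-/-, and Zbtb46 of dendritic cells, with 1.55 CPM or less for WT and 9.13 to 32.7 CPM for Tgfbr2-/-. The sums of both of these lists overlapped between genotypes, from 174 to 324 CPM (WT) and 224 to 831 CPM (Tgfbr2-/-) for the 5 NK cell and ILC1 genes and from 198 to 1372 CPM (WT) and 407 to 657 CPM (Tgfbr2-/-) for the 5 dendritic cell genes. Among the other dendritic cell genes, Tgfbr2-/- medians were lower for H2-Ab1 (96.0 against 174 CPM) and Itgax (0.0643 against 0.190 CPM) and higher for Cd74 (486 against 391 CPM). Flt3 was at 0 in every LP library. Of the 12 ILC2 genes, Il1rl1, Il5 and Klrg1 lay lower without overlap in Tgfbr2-/- LP ILC2s and the others overlapped. No share over all genes was set beside this, so it describes these genes only. Il1rl1, which encodes ST2, ranged from 71.3 to 215 CPM across WT and from 51.0 to 56.6 CPM across Tgfbr2-/- libraries. The cytokine gene Il5 ranged from 93.4 to 218 and from 41.4 to 65.2 CPM, and Klrg1, whose protein was part of the sort, from 835 to 962 and from 678 to 771 CPM. The lineage stain of the sort included CD11b and Gr-1, antibodies that remove most neutrophils and macrophages. The part of these cells in the LP and BM results was not tested.

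Single BM libraries also lacked genes that the other BM libraries held at high levels. Of the genes at 50 CPM or more elsewhere in BM ILC2p, from 1.56% to 14.1% lay below 1 CPM in any one BM library, against at most 0.0286% in LP ILC2s. The largest shares were in WT experiment 1 replicate 1 (14.1%) and in Tgfbr2-/- experiment 1 replicates 1 and 2 (12.1% and 13.8%). A single low BM value of a receptor or enzyme below therefore has many counterparts across the genome in the same library.

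**Figure D1:**
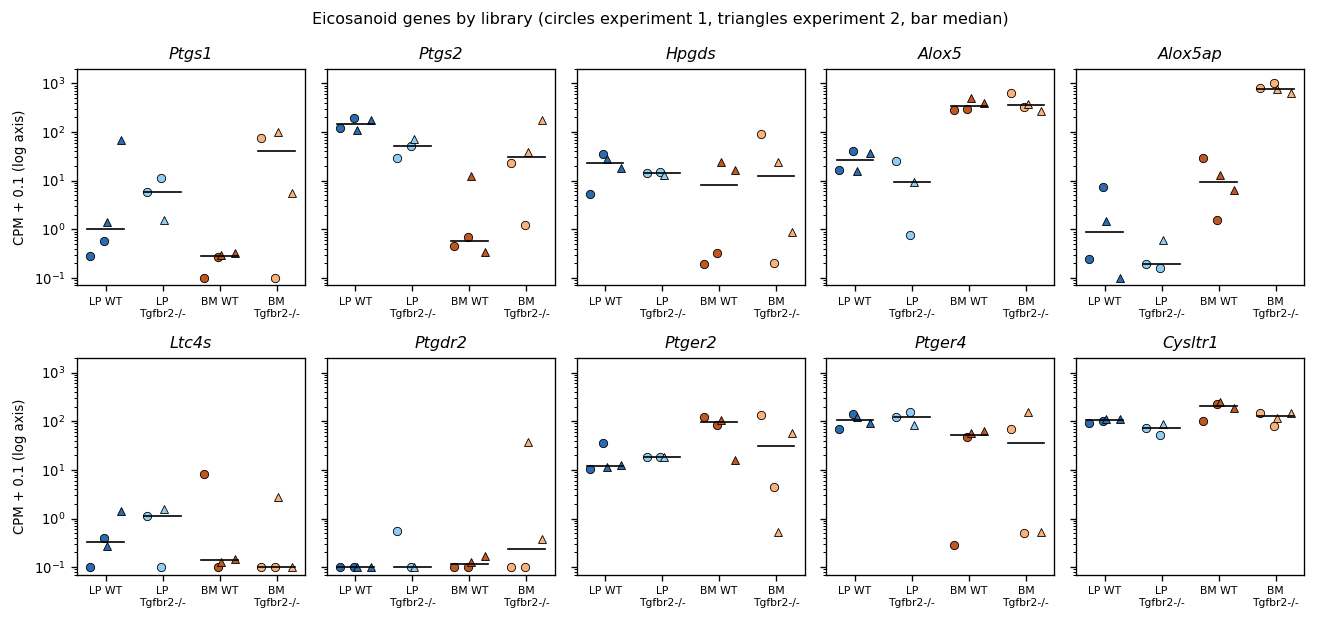
Level of each of the 10 eicosanoid genes in every library (vertical logarithmic axes, CPM plus 0.1, so that 0 lies at the bottom); each point is 1 library, circles experiment 1 and triangles experiment 2, and bars are group medians. Alox5ap stands at 621 CPM or more in all 4 Tgfbr2-/- BM ILC2p libraries and at 29.2 CPM or less in the other 11.

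The order of the genes differed by group. In WT LP ILC2s, Ptgs2, Cysltr1 and Ptger4 led with medians of 40.2, 40.0 and 37.9 RPKM, and these neighbours overlapped across libraries. Alox5, Hpgds and Ptger2 followed at medians of 10.7, 8.20 and 3.75 RPKM, and each overlapped its neighbour. Alox5ap, Ltc4s and Ptgs1 had medians of about 1 RPKM or less, and Ptgdr2 was at 0. In Tgfbr2-/- LP ILC2s the same 3 genes led, in the order Ptger4 (41.7), Cysltr1 (27.6) and Ptgs2 (13.2 RPKM), each overlapping the next. In WT BM ILC2p, Alox5 and Cysltr1 led with medians of 148 and 83.9 RPKM and overlapped each other, and every library of Cysltr1 was above every library of the next gene, Ptger2, at 29.1. In Tgfbr2-/- BM ILC2p, Alox5ap led at 896 RPKM, followed by Alox5 at 127 and Cysltr1 at 41.0, with no overlap between Alox5ap and Alox5 or between Alox5 and Cysltr1. The other 7 genes of that group had medians of 13.1 RPKM or less, and each overlapped its neighbour.

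In LP ILC2s, no eicosanoid gene passed the test for genotype. A gene was called at an adjusted p under 0.1 with a fold change above 1.5 in edgeR's quasi-likelihood test, adjusted over all genes tested. Called genes made up 0% of the 11981 tested in either direction, with 557 at an unadjusted p under 0.05, while DESeq2 called 338 genes and limma called 0. Of the 10 eicosanoid genes 9 were abundant enough to test, Ptgdr2 being the exception. edgeR called 0 of them, with 2 at an unadjusted p under 0.05, DESeq2 called 1 (Ptgs2) and limma called 0. The median log2 fold change of the 9 was -0.529, beside -0.007 over all genes tested. In BM ILC2p, 2.61% of 9242 genes were called higher in Tgfbr2-/- libraries and 0.866% were called lower. Of the 7 eicosanoid genes tested, Alox5ap was called higher and none was called lower, with a median log2 fold change of 0.412 beside -0.096 over all genes tested. Ptgs1, Ptgdr2 and Ltc4s did not pass edgeR's filter on counts and were not tested, although Ptgs1 reached 1 CPM in 3 of 4 Tgfbr2-/- libraries.

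Between cell types, WT LP ILC2s were higher than WT BM ILC2p in 1.82% and lower in 0.736% of 10468 genes tested. Of the 7 eicosanoid genes tested, Ptgs2 was called higher and Alox5 lower in LP ILC2s, with a median of -0.869 beside -0.086 over all genes tested. Among Tgfbr2-/- libraries, 9.13% of 11469 genes were called higher and 4.6% lower in LP ILC2s, and of the 9 eicosanoid genes tested Alox5 and Alox5ap were called lower. Their median was -1.097 beside -0.265 over all genes tested. The comparisons share libraries, so they are not independent of one another. A test of the difference between the genotype effects of the 2 cell types called 0.469% of 12806 genes higher and 0.523% lower in LP ILC2s. It called 1 of the 9 eicosanoid genes tested, Alox5ap.

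**Figure D2:**
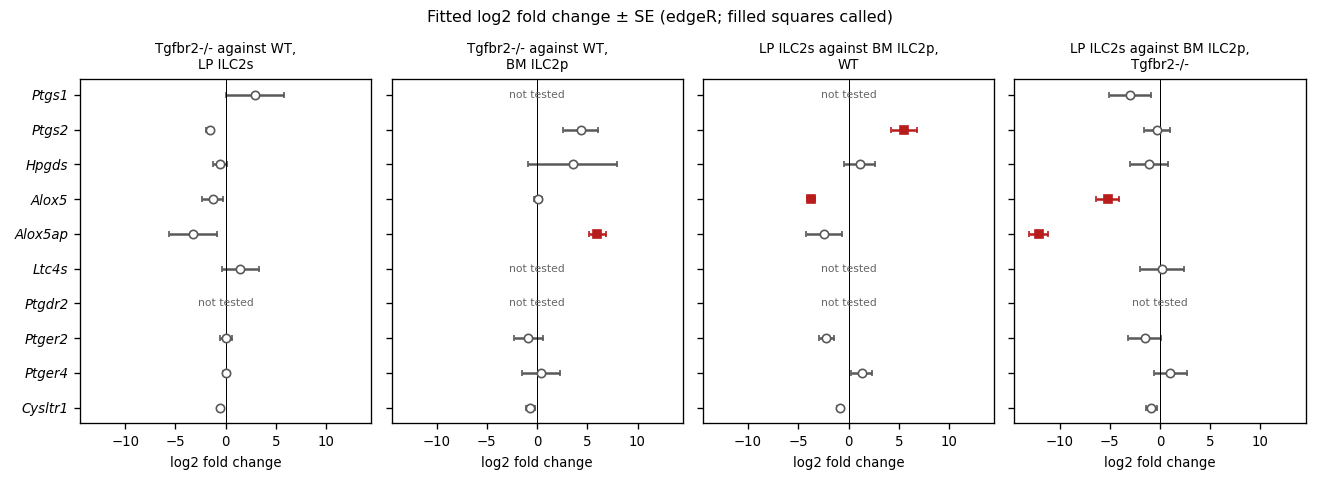
log2 fold change of each tested eicosanoid gene in the genotype and cell type comparisons (edgeR; horizontal axis log2, bars the standard error, filled squares the genes that passed the threshold). The filled squares are Alox5ap in BM ILC2p and in Tgfbr2-/- LP against BM, Alox5 in both cell type comparisons and Ptgs2 in WT LP against BM.

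Ptgs2, the inducible cyclooxygenase, lies on mm9 chr1:151947254-151955140 on the plus strand. Its levels in WT LP ILC2s were 123, 199, 109 and 175 CPM, with a mean of 151 ± 42.4 CPM (SD, n = 4). In Tgfbr2-/- LP ILC2s they were 29.1, 52.3 and 73.6 CPM, with a mean of 51.6 ± 22.3 CPM (SD, n = 3). All 3 Tgfbr2-/- libraries lay below all 4 WT libraries. The fitted log2 difference was -1.58 (SE 0.36), 2.99-fold lower, at an adjusted p of 0.877 by edgeR, which did not pass. The exact two-sided permutation test within experiments gave p = 0.0556, the smallest its 18 arrangements allow, and DESeq2 called the same difference at an adjusted p of 0.0065. Within experiment 1 the log2 difference was -2.003 and within experiment 2 it was -0.92, the latter resting on 1 Tgfbr2-/- library.

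In BM ILC2p the same gene was low in 3 of 4 WT libraries. WT levels were 0.357, 0.581, 12.2 and 0.242 CPM, and Tgfbr2-/- levels were 22.9, 1.14, 39.2 and 179.7 CPM. The groups overlapped, because the 12.2 CPM of WT experiment 2 replicate 1 exceeded the 1.14 CPM of Tgfbr2-/- experiment 1 replicate 2. Within each experiment, however, both Tgfbr2-/- libraries were above both WT libraries, and the exact permutation p within experiments was 0.0556, again the smallest possible. The fitted log2 difference of 4.35 (SE 1.72) had an adjusted p of 0.415 by edgeR and did not pass, while DESeq2 called it (adjusted p 0.0117). Leaving out 1 library gave values from 3.12 to 5.90 by edgeR. The genotype difference thus had opposite signs in LP ILC2s and BM ILC2p, and the test of that difference, -5.94 on the log2 scale (SE 1.64), gave an adjusted p of 0.141 by edgeR and did not pass.

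WT LP ILC2s held 45.2-fold more Ptgs2 than WT BM ILC2p, at a log2 difference of 5.50 (SE 1.32) and an adjusted p of 0.0835 by edgeR. Every WT LP library was above every WT BM library, with an exact two-sided permutation p of 0.0286, the smallest that 70 arrangements allow. The call held in only 1 of 8 fits that left out 1 library, namely without WT BM experiment 2 replicate 1, where the log2 difference was 8.59. Leaving out any other library gave values from 5.10 to 5.63 that did not pass. Experiments 1 and 2 taken alone, joined across cell types by number only, gave 8.38 and 4.50, with adjusted p of 0.191 and 0.325 by edgeR. Among Tgfbr2-/- libraries the groups overlapped (log2 difference -0.30, SE 1.32, adjusted p 0.971 by edgeR), and the sign turned when 1 library was left out (-0.66 to 1.23) and under upper-quartile scaling (0.38).

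The promoters of Ptgs2 and Alox5 are shown because these were the 2 genes called between the WT cell types, in opposite directions. RefSeq promoters (GRCm38.p6; 250 bases before to 50 after the start) were matched for 8 of the 10 genes. Ptgs2 lies at chr1:150099781-150100080, plus strand, and Alox5 at chr6:116461129-116461428, minus strand, in that build. Each is written 5′ to 3′, with capitals at every match, on either strand, to the motif CAGAC (the core of SMAD binding elements), the GC box GGGCGG, the cyclic AMP response core TGACG, the CCAAT box or the TATA box with the letters TATAAA. No matches overlap here.
Ptgs2: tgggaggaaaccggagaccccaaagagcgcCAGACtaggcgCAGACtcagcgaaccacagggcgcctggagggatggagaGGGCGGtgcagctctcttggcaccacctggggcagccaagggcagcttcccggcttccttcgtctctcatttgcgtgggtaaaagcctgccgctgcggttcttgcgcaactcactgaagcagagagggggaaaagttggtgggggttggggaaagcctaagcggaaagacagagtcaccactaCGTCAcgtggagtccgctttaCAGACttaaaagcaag
Alox5: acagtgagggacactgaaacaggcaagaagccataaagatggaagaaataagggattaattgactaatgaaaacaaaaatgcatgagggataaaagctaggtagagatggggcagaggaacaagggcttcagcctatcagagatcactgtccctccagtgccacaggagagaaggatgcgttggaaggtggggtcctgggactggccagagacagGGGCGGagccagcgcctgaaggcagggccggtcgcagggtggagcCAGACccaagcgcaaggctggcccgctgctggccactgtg

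The motif CAGAC occurred in 7 of the 8 promoters and in 49.6% of all 32851 promoters in the table. In Ptgs2 it lay at -220, -209 and +35 from the start, and in Alox5 at +11. The GC box GGGCGG occurred in 4 of 8 and in 35.7% of all promoters, at -170 in Ptgs2 and at -35 in Alox5. The motif TGACG occurred in 1 of 8 (Ptgs2, at +14, on the opposite strand) and in 20.8% of all promoters. CCAAT was in 3 of 8 (37.4% of all promoters), and TATAAA was in 0 of 8 (13.6% of all promoters). These are letter matches in a fixed window and were not tested against the expression values.

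Ptgs1, the constitutive cyclooxygenase (mm9 chr2:36085946-36107792, plus strand), was low or absent in most libraries. WT LP ILC2s had 0.187, 0.481, 1.33 and 68.5 CPM, and Tgfbr2-/- LP ILC2s had 5.89, 11.3 and 1.45 CPM. One library, WT experiment 2 replicate 2, carried nearly all of the WT reads, and it also had the highest monocyte or macrophage sum of the WT LP libraries (179 CPM, against 0.0935, 3.61 and 7.69) and the highest epithelial sum (316 CPM, against 6.64, 15.7 and 92.5). Tgfbr2-/- LP experiment 2 replicate 1 had a higher epithelial sum, 797 CPM, with 1.45 CPM of Ptgs1. The part of those cells in Ptgs1 was not tested. WT BM ILC2p had 0, 0.174, 0.198 and 0.218 CPM, which is 9 counts or fewer in each library. Tgfbr2-/- BM ILC2p had 77.1, 0, 102 and 5.53 CPM, so 3 of 4 exceeded every WT library and the fourth was at 0. No comparison called Ptgs1, and the LP genotype difference gave no stable direction. It was 2.91 on the log2 scale with experiment as a covariate (SE 2.85, adjusted p 0.913 by edgeR) and -1.50 without it, while the WT mean was 17.6 CPM and the Tgfbr2-/- mean 6.21 CPM.

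Hpgds, the haematopoietic PGD2 synthase (mm9 chr6:65067287-65094902, minus strand), was present in every LP library. WT LP ILC2s had 5.33, 34.7, 27.9 and 18.2 CPM, Tgfbr2-/- LP ILC2s had 14.2, 15.2 and 13.3 CPM, and the groups overlapped. In BM ILC2p it was near the floor in some libraries and clearly present in others, with WT levels of 0.0892, 0.232, 23.7 and 16.2 CPM and Tgfbr2-/- levels of 89.5, 0.104, 23.6 and 0.773 CPM. The spread within each BM group was larger than any difference between groups. The log2 genotype difference was -0.60 (SE 0.70) in LP ILC2s and 3.55 (SE 4.41) in BM ILC2p, with adjusted p of 0.928 and 0.920 by edgeR. Neither direction was stable, with values from -1.03 to 0.30 in LP ILC2s and from -0.68 to 6.40 in BM ILC2p when 1 library was left out.

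Alox5, the 5-lipoxygenase (mm9 chr6:116360095-116411196, minus strand), separated the bone marrow from the gut. WT BM ILC2p had 279, 296, 506 and 390.2 CPM, and WT LP ILC2s had 16.8, 40.2, 15.7 and 36.9 CPM. Every LP library was below every BM library, with means of 27.4 ± 12.9 and 368 ± 104 CPM (SD, n = 4 each). Alox5 was 13.3-fold lower in WT LP ILC2s, at a log2 difference of -3.74 (SE 0.42) and an adjusted p of 0.00214 by edgeR. The exact two-sided permutation p was 0.0286, the smallest possible. The call held in 8 of 8 fits that left out 1 library, with values from -3.98 to -3.55. Experiments 1 and 2 taken alone, joined across cell types by number only, gave log2 differences of -3.34 and -4.09. Their adjusted p were 0.324 and 0.113 by edgeR at 2 libraries a group. The mast cell gene Cpa3 stood at 108 to 295 CPM in WT BM ILC2p and at 5.52 CPM or less in WT LP ILC2s. Kit of the same list went the other way, at 12.7 to 132 CPM in BM and 231 to 487 CPM in LP. Hdc overlapped, and Mcpt1, Mcpt2, Mcpt4, Tpsb2, Tpsab1, Cma1 and Ms4a2 were at 0 in every WT library. The sums of the 10 mast cell genes overlapped, at 234 to 310 CPM in WT BM ILC2p and 244 to 516 CPM in WT LP ILC2s. In the same order, the 7 neutrophil genes summed to between 781 and 1546 CPM and to 3.65 CPM or less. The part of these cells in Alox5 was not tested.

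Tgfbr2-/- libraries showed the same order for Alox5. LP levels were 25.2, 0.678 and 9.13 CPM and BM levels were 632, 328, 384 and 273 CPM, again with no overlap. The log2 difference of -5.20 (SE 1.13), 36.7-fold, passed at an adjusted p of 0.0269 by edgeR. It also passed in 7 of 7 fits without 1 library, with values from -6.48 to -4.64. Alone, the experiments, joined by number in the same way, gave -5.30 (adjusted p 0.164 by edgeR) and -5.20, the latter resting on 1 LP library. Genotype itself showed no called difference within either cell type. In BM ILC2p the WT mean was 368 ± 104 CPM and the Tgfbr2-/- mean 404 ± 158 CPM (SD, n = 4 each), with a log2 difference of 0.12 (SE 0.39, adjusted p 0.978 by edgeR) whose sign turned under other scalings, to -0.18 under upper-quartile scaling. In LP ILC2s the log2 difference was -1.31 (SE 1.03, adjusted p 0.898 by edgeR).

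Alox5ap, the 5-lipoxygenase activating protein (mm9 chr5:150076634-150099621, plus strand), was the 1 gene of the 7 tested that passed for genotype in BM ILC2p. WT BM ILC2p had 29.2, 1.45, 12.7 and 6.28 CPM, and Tgfbr2-/- BM ILC2p had 819, 1002, 752 and 621 CPM. Every Tgfbr2-/- library was above every WT library, with means of 798 ± 158 and 12.4 ± 12.1 CPM (SD, n = 4 each). Alox5ap rose 64.3-fold, at a log2 difference of 6.01 (SE 0.87) and an adjusted p of 0.00647 by edgeR. The exact two-sided permutation p within experiments was 0.0556, the smallest that 36 arrangements allow. The call held in 8 of 8 fits without 1 library, with values from 5.62 to 7.12. Experiment 2 alone gave 6.10 (adjusted p 0.0411 by edgeR) and experiment 1 alone 5.91 (adjusted p 0.378).

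The same 4 Tgfbr2-/- libraries held the high neutrophil, monocyte or macrophage and basophil sums given above, and the ILC2 list summed to between 3899 and 5793 CPM in them against between 8292 and 12127 CPM in WT. Neutrophils, monocytes and basophils are known to express Alox5ap. The part of these cells in the change of Alox5ap was not tested, and no BM library was free of the neutrophil genes.

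In LP ILC2s, Alox5ap was low, with 2 of 4 WT and 0 of 3 Tgfbr2-/- libraries at 1 CPM or more. WT libraries had 0.140, 7.45, 1.38 and 0 CPM and Tgfbr2-/- libraries had 0.0965, 0.0616 and 0.507 CPM, the latter from 12 reads in all. The groups overlapped, and the genotype difference of -3.22 (SE 2.40) had an adjusted p of 0.898 by edgeR. The difference between the genotype effects of LP ILC2s and BM ILC2p was -9.32 on the log2 scale (SE 2.18) and passed at an adjusted p of 0.0936 by edgeR, and fits that left out 1 library called 0 of the eicosanoid genes in 10 of 15 cases. Among Tgfbr2-/- libraries, Alox5ap was lower in LP than in BM by 12.07 on the log2 scale (SE 0.95, adjusted p 0.000299 by edgeR), a size that rests on those 12 LP reads. Leaving out 1 library gave log2 differences from -13.29 to -11.55. Among WT libraries the groups overlapped at a log2 difference of -2.46 (SE 1.78, adjusted p 0.808 by edgeR).

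**Figure D3:**
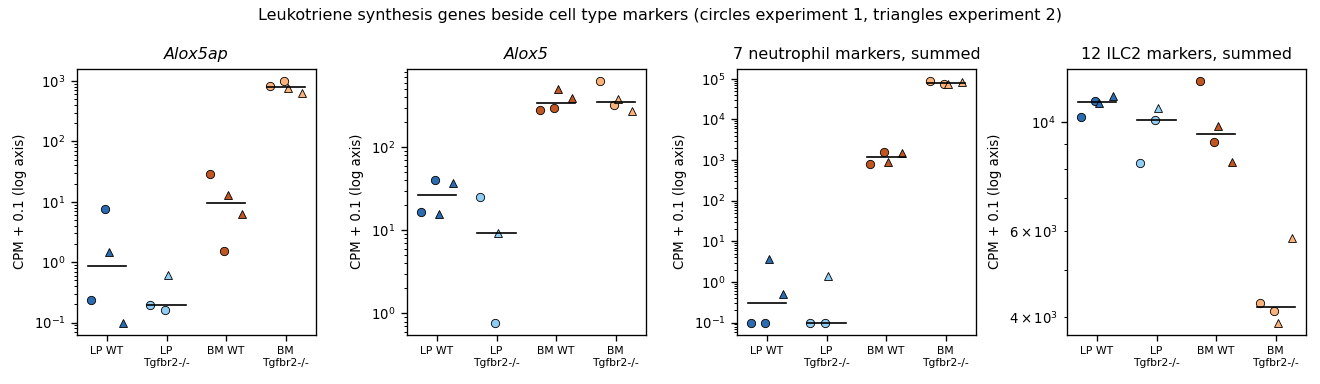
Alox5ap, Alox5, the summed 7 neutrophil genes and the summed 12 ILC2 genes in every library (logarithmic axes, CPM plus 0.1; circles experiment 1, triangles experiment 2, bars group medians). The 4 Tgfbr2-/- BM ILC2p libraries lie apart in 3 of the panels, with 621 CPM or more of Alox5ap, 73150 CPM or more of neutrophil genes and 5793 CPM or less of ILC2 genes, while their Alox5 overlaps that of WT BM ILC2p.

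Ltc4s, which joins glutathione to leukotriene A4 (mm9 chr11:50049971-50052118, minus strand), stayed low. WT LP ILC2s had 0, 0.288, 0.166 and 1.32 CPM, and Tgfbr2-/- LP ILC2s had 1.03, 0 and 1.45 CPM. WT BM ILC2p had 8.03, 0, 0.0283 and 0.0485 CPM, and Tgfbr2-/- BM ILC2p had 0, 0, 2.72 and 0 CPM. At most 1 library in each BM group exceeded 1 CPM, and all groups overlapped. No comparison called it.

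Ptgdr2, encoding the PGD2 receptor CRTH2 (mm9 chr19:11011650-11017001, plus strand, annotated there as Gpr44), was nearly undetected. WT LP ILC2s had 0 reads in all 4 libraries, which allows up to between 0.140 and 0.209 CPM depending on the library. Tgfbr2-/- LP ILC2s had 0.450, 0 and 0 CPM, and WT BM ILC2p had 0, 0, 0.0283 and 0.0727 CPM. Tgfbr2-/- BM ILC2p had 0, 0, 36.9 and 0.271 CPM. The 36.9 CPM came from 869 reads of a single library, experiment 2 replicate 1, and Ptgdr2 was tested in no comparison. CRTH2 is also known on basophils and eosinophils. In the order of the Ptgdr2 values above, the eosinophil sums of the 4 Tgfbr2-/- BM libraries were 376, 20.3, 402 and 14.2 CPM, and the basophil sums were 994, 1127, 1133 and 1418 CPM. Of the eosinophil genes, Siglecf did not exceed 0.155 CPM and Ccr3 2.89 CPM in them. The basophil genes Prss34 (822 to 945 CPM), Mcpt8 (84.3 to 355 CPM) and Fcer1a (64.0 to 136 CPM) were present in each of these 4 libraries. Another gene of that list, Cd200r3, was at 17.5 CPM in Tgfbr2-/- experiment 2 replicate 1 and at 0 in the other BM libraries. The part of those cells in its Ptgdr2 was not tested.

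Ptger4, encoding the PGE2 receptor EP4 (mm9 chr15:5156661-5194187, minus strand), had more RPKM than Ptger2 in every LP library. WT LP levels were 70.4, 138, 123 and 91.7 CPM, and Tgfbr2-/- LP levels were 123, 153 and 83.2 CPM. The groups overlapped, with a log2 difference of 0.08 (SE 0.30, adjusted p 0.984 by edgeR). In BM ILC2p, Ptger4 was near absent in 1 of 4 WT and 2 of 4 Tgfbr2-/- libraries, with WT levels of 0.179, 48.1, 58.2 and 64.2 CPM. The Tgfbr2-/- levels were 70.0, 0.414, 152 and 0.425 CPM. All 4 WT LP libraries were above all 4 WT BM libraries, but the log2 difference of 1.33 (SE 1.04) had an adjusted p of 0.837 by edgeR and did not pass.

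Ptger2, encoding the PGE2 receptor EP2 (mm9 chr14:45607870-45623495, plus strand), tended to the opposite order in WT cells. WT LP ILC2s had 10.1, 35.9, 11.5 and 12.6 CPM, and WT BM ILC2p had 124, 85.6, 104 and 16.1 CPM. Of the 4 BM libraries, 3 were above all LP libraries and the fourth overlapped, and the log2 difference of -2.23 (SE 0.75) had an adjusted p of 0.294 by edgeR and 0.0364 by DESeq2. Tgfbr2-/- LP ILC2s had 18.1, 18.2 and 18.1 CPM, within the WT range. Tgfbr2-/- BM ILC2p spread from 0.425 to 132.5 CPM, with 4.25 and 57.5 CPM between, and the genotype difference of -0.89 (SE 1.43) did not pass.

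Cysltr1, encoding the cysteinyl leukotriene receptor 1 (mm9 chrX:103769685-103799018, minus strand), stood above 50 CPM in every library. WT LP ILC2s had 91.3, 102, 111 and 111 CPM, and Tgfbr2-/- LP ILC2s had 72.4, 52.5 and 89.6 CPM. All 3 Tgfbr2-/- libraries were below all 4 WT libraries, with an exact two-sided permutation p of 0.0556, the smallest possible. The log2 difference of -0.53 (SE 0.22), 1.44-fold, had an adjusted p of 0.898 by edgeR and did not pass. WT BM ILC2p had 103, 225, 253 and 184 CPM, and Tgfbr2-/- BM ILC2p had 149.8, 81.1, 115 and 146 CPM, which overlapped. The WT difference between LP and BM, -0.87 on the log2 scale (SE 0.32, adjusted p 0.372 by edgeR), passed only without WT BM experiment 1 replicate 1 (-1.06, adjusted p 0.0634).

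Among the other 50 genes listed for eicosanoid release, synthesis, transport and sensing, 28 reached 1 CPM in at least 3 libraries and 12 stayed under 1 CPM in all 15. In LP ILC2s, 24 were tested for genotype and edgeR called 0, with 3 at an unadjusted p under 0.05 beside 4.65% of all genes tested, while DESeq2 called 3 (of 338 genes it called in all) and limma 0 (of 0 in all). Their median log2 fold change was 0.309 beside -0.007 over all genes tested. In BM ILC2p, 21 were tested and edgeR called 1 higher, Fpr2, and 0 lower, beside 2.61% and 0.866% of all genes tested, while DESeq2 called 4 (of 1229 genes it called in all) and limma 3 (of 477 at a pseudocount of 1). Their median was 0.824 beside -0.096. Of 17 tested between WT LP ILC2s and WT BM ILC2p, edgeR called 0, with 2 at an unadjusted p under 0.05 beside 9.39% of all genes tested, while DESeq2 called 1 (of 604 genes it called in all) and limma 0 (of 436 at a pseudocount of 1). Of 25 tested between Tgfbr2-/- LP ILC2s and BM ILC2p, 1 was called higher and 3 lower in LP, which is 4% and 12% beside 9.13% and 4.6% of all genes tested. The difference between genotype effects was tested for 29 and edgeR called 0, with 4 at an unadjusted p under 0.05 beside 12.1% of all genes tested, while DESeq2 called 5 (of 1518 genes it called in all) and limma 1 (of 382 at a pseudocount of 1).

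Fpr2, a receptor for lipoxin A4 and formyl peptides, was absent from the gut and varied with genotype in the bone marrow. It had 0 reads in all 7 LP libraries, 0.268, 0.465, 0.735 and 0.412 CPM in WT BM ILC2p, and 78.3, 161, 61.4 and 125 CPM in Tgfbr2-/- BM ILC2p. All 4 Tgfbr2-/- BM libraries exceeded all WT libraries. Fpr2 rose in Tgfbr2-/- BM ILC2p by 7.78 on the log2 scale (SE 1.21, adjusted p 0.0101 by edgeR). Against Tgfbr2-/- LP ILC2s it was at least 282-fold higher in BM, taking the lowest BM library over the highest per-library floor of 3 counts (adjusted p 0.00606 by edgeR). Neutrophils and macrophages are known for this receptor, their markers moved with it in the same 4 libraries, and the part of these cells was not tested.

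Lta4h, which makes leukotriene B4, was lower in Tgfbr2-/- LP ILC2s than in Tgfbr2-/- BM ILC2p by 1.70 on the log2 scale (SE 0.26, adjusted p 0.0123 by edgeR). Tgfbr2-/- libraries held 211, 209 and 214 CPM in LP and 757, 640, 610 and 567 CPM in BM, without overlap. In WT, LP libraries held 207, 177, 202 and 269 CPM and BM libraries 422, 95.5, 160 and 196 CPM, which overlapped. The BM genotype difference of 1.55 (SE 0.44) had an adjusted p of 0.149 by edgeR and did not pass.

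Alox15, the 12/15-lipoxygenase, was called lower in Tgfbr2-/- LP ILC2s than in Tgfbr2-/- BM ILC2p (-8.31 on the log2 scale, SE 2.54, adjusted p 0.0804 by edgeR). Its level was 1.13 CPM or less in every LP library, 0.407 CPM or less in every WT BM library, and 188, 148, 143 and 0.309 CPM in Tgfbr2-/- BM ILC2p. One of these 4 libraries therefore lay at the WT level. Eosinophils and macrophages are also known to express Alox15. The eosinophil genes summed to 376, 20.3, 402 and 14.2 CPM in the same 4 libraries, while Siglecf and Ccr3 of that list did not exceed 0.155 and 2.89 CPM. The part of eosinophils and macrophages in Alox15 was not tested. Ptges, an inducible PGE2 synthase, was called higher in Tgfbr2-/- LP ILC2s (adjusted p 0.0588 by edgeR), with 3.67, 6.99 and 1.67 CPM against 0.198, 0, 0 and 0 CPM in BM. Its BM level was at or under the floor in all 4 libraries, so no fold is given.

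Among the pathway genes that edgeR called in no comparison, Ltb4r1, encoding the leukotriene B4 receptor BLT1, was abundant throughout. In LP ILC2s it held 135, 296, 233 and 113 RPKM in WT and 344, 273 and 310.3 RPKM in Tgfbr2-/- libraries. In BM ILC2p it held 236, 460.1, 425 and 300.1 RPKM in WT and 558, 289.8, 422 and 466 RPKM in Tgfbr2-/- libraries, and all 4 groups overlapped. Mgst2, which can also make leukotriene C4, held 20.4, 10.6, 26.0 and 7.78 RPKM in WT LP ILC2s. In Tgfbr2-/- BM ILC2p it held 95.0, 74.7, 80.9 and 37.9 RPKM against 0.292, 10.5, 8.17 and 4.16 RPKM in WT BM ILC2p, without overlap, and the log2 difference of 3.90 (SE 1.52) had an adjusted p of 0.403 by edgeR. Cysltr2, the other cysteinyl leukotriene receptor gene, ranged from 7.30 to 40.0 RPKM in WT LP ILC2s and from 21.3 to 37.6 RPKM in WT BM ILC2p. Ptger1, encoding the PGE2 receptor EP1, held 56.9, 21.9, 14.2 and 19.1 RPKM in WT LP ILC2s, beside 21.0 to 44.0 RPKM of Ptger4, and was the higher of the pair in experiment 1 replicate 1. Ptgir, encoding the prostacyclin receptor, ranged from 30.8 to 52.0 RPKM in WT LP ILC2s and from 22.6 to 67.5 RPKM in WT BM ILC2p.

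**Figure D4:**
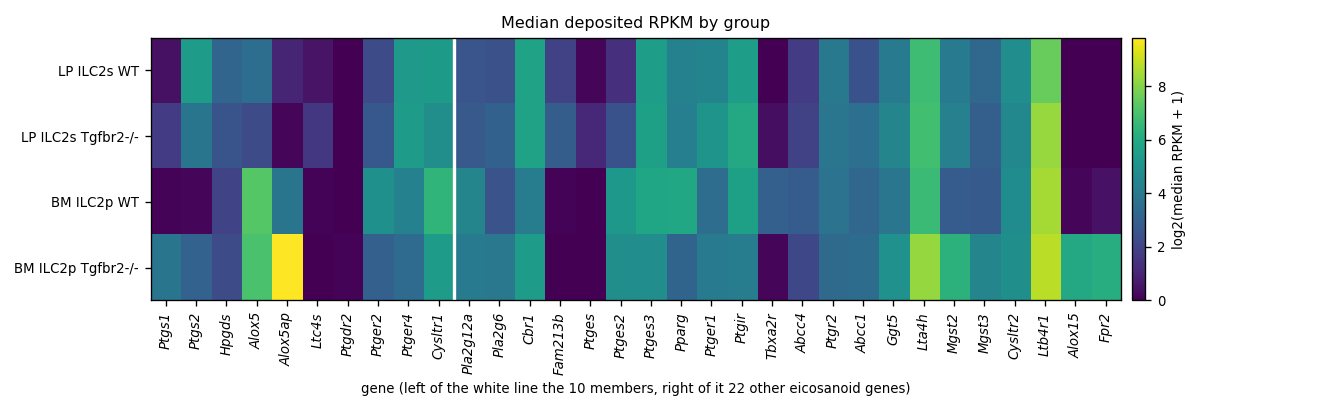
Heat map of the median level of the 10 genes (left of the white line) and 22 other eicosanoid genes (right) in each group, as log2 of the median RPKM plus 1, with genes across and groups down. Ltb4r1 is bright in every group, at 113 RPKM or more in every library, and Fpr2 and Alox15 are dark in every group except Tgfbr2-/- BM ILC2p.

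Genes whose levels followed each eicosanoid gene most closely were sought among 9243 genes over all 15 libraries, by Pearson's r of log2 levels, as a description only. The libraries share cell type, genotype and depth, which alone raise such correlations. Alox5ap was followed by Hp (r = 0.979), Osm (0.968) and Wfdc21 (0.967). Alox5 was followed by Sema4a (0.906), Scgb2b26 (0.900) and Cpa3 (0.896), the last a protease gene of mast cells and their precursors that was found in BM ILC2p of both genotypes. Ptgs2 was followed by Dgat2 (0.922), Lrrc25 (0.881) and Ldlrad4 (0.868). Ptgs1 was followed by Id1 (0.849), Timp2 (0.847) and Slc12a9 (0.834). Among the receptors, Ptger4 was followed by Mafk (0.971), Pdcd2l (0.970) and Fam98c (0.968), and Ptger2 by Gab2 (0.924), Dctn6 (0.902) and Amer1 (0.884). Cysltr1 was followed by Casp1 (0.824), Il1rl1 (0.823), which encodes the IL-33 receptor ST2, and Gprin3 (0.790). Hpgds was followed by Osbpl7 (0.958), Mul1 (0.957) and Snx11 (0.941). Ptgdr2 and Ltc4s were too low for such a ranking.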

How the data were processed

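RNA was sequenced from sorted LP ILC2s and BM ILC2p. The authors mapped reads to mm9 (TopHat per the study's methods, with up to 15 multiple hits; the submitters' processing notes name Bowtie2) and summed them over full RefSeq transcripts with rpkmforgenes. The deposited tables hold raw read counts per gene and the authors' RPKM values; use of strand is not given in the sources used here. Counts were analysed with edgeR 4.0.16 in R 4.3.3 (TMM scaling, filterByExpr, quasi-likelihood test, experiment as covariate in genotype comparisons, Benjamini-Hochberg adjustment over all genes tested); a gene was called at adjusted p under 0.1 and fold above 1.5. DESeq2 1.42.0 and limma 3.58.1 (log2 of RPKM plus 1 or 0.1) were alternatives. The standard error is the log2 fold change divided by the square root of F. Exact permutation tests used mean log2(CPM + 1). Named were the 10 genes and each of 50 other eicosanoid genes that was called or had a median of at least 5 RPKM in a group (22 genes); the main ones are described. The 3 most similar genes were taken among those at 10 CPM or more in at least 4 libraries, for each of the 10 genes whose median reached 5 CPM in any group. The members and lists were chosen with earlier results of these data known. The tests were tried on simulated data. Positions are from GENCODE on mm9.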

Additional observations from a re-analysis of the deposited data

Results flagged for a closer look

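Within groups of 4 libraries, 6 of 29 gene and group combinations had 1 library far above the other 3 by Dixon's criterion. Its nominal rate of 1 in 20 assumes normally distributed values and was not measured here over all genes. Where 3 libraries are at 0, as for Ltc4s in Tgfbr2-/- BM ILC2p, any count in the fourth is flagged. The flags are therefore a description only. Ptgs1 reached 68.5 CPM in WT LP ILC2s experiment 2 replicate 2, against 1.33 CPM or less in the other 3 WT LP libraries. Ptger2 reached 35.9 CPM in WT LP ILC2s experiment 1 replicate 2. Ptgs2 reached 12.2 CPM in WT BM ILC2p experiment 2 replicate 1, against 0.581 CPM or less in the other 3. Ltc4s reached 8.03 CPM in WT BM ILC2p experiment 1 replicate 1. In Tgfbr2-/- BM ILC2p experiment 2 replicate 1, both Ptgdr2 (36.9 CPM) and Ltc4s (2.72 CPM) stood apart from the other 3 libraries.

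For Alox5ap the test of the difference between the genotype effects of the 2 cell types passed narrowly: the log2 ratio of Tgfbr2-/- to WT in LP ILC2s minus that in BM ILC2p was -9.32 (SE 2.18, adjusted p 0.0936 by edgeR). Alox5ap was higher in 4 of 4 Tgfbr2-/- BM libraries than in every WT BM library, and the LP libraries overlapped. Of the 10 genes, 0 were called for this difference in 10 of 15 fits without 1 library, at adjusted p under 0.05 and with the replicate block. The same 4 BM libraries held 73150 CPM or more of neutrophil genes, 11363 CPM or more of monocyte or macrophage genes and 994 CPM or more of basophil genes, whose part in the difference was not tested.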

How the results depend on the processing

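DESeq2, which scales and tests differently, called more genes. In LP ILC2s it called 1 of the 10 genes, 3 other eicosanoid genes and 338 genes in all, and in BM ILC2p 2, 4 and 1229. It called 1 other eicosanoid gene and 604 genes in all between WT cell types, 7 other eicosanoid genes and 2236 genes in all between Tgfbr2-/- cell types, and 2, 5 and 1518 for the difference of genotype effects. The cause was not tested. With limma on RPKM, 3 other eicosanoid genes were called in BM ILC2p at both pseudocounts (477 or 457 genes in all), 1 for the difference, 436 or 422 genes in all between WT cell types, and 382 or 360 for the difference. In BM ILC2p limma turned Ptger4 (-0.75 and -1.22) and Alox5 (-0.16 at both), and between Tgfbr2-/- cell types Hpgds (0.52 and 1.58), Ptgs2 (0.91 and 1.35) and Ptger2 (0.16 and 0.77).

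Scaling moved the median of all genes. Relative to TMM it moved by 0.118 under DESeq2, -0.321 under upper quartile and -0.223 under library size in BM ILC2p, and by -0.174, 0.611 and 0.384 between Tgfbr2-/- cell types. For the difference it moved by -0.164, 0.356 and 0.304, and under upper quartile by 0.102 in LP ILC2s and 0.107 between WT cell types. The share of calls that were higher was 75.08% in BM ILC2p (DESeq2 55%, upper quartile 63.04%), 71.27% between WT cell types (DESeq2 55.13%), 66.48% between Tgfbr2-/- cell types (DESeq2 50.76%, upper quartile 77.55%) and 47.24% for the difference (59.75%, 71.92% and, by library size, 66.84%). Upper quartile and library size turned Alox5 in BM ILC2p (-0.177 and -0.0922) and Ptgs2 between Tgfbr2-/- cell types (0.38 and 0.13), and gave 203 and 196 genes for the difference.

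Without a filter, 3 genes in all were called in LP ILC2s, 3 other eicosanoid genes in BM ILC2p, 176 genes in all between WT cell types, and 2, 1 and 259 for the difference. With at least 10 counts in every library, 199 genes in all were called in BM ILC2p. The same filter left 1 of the 10 genes between WT and 1 between Tgfbr2-/- cell types (with 1 other eicosanoid gene, 389 genes in all and Ptgs2 at 0.055), and 0 for the difference. That filter removes Alox5ap wherever LP libraries are fitted and Ptgs2 between WT cell types, so these calls were lost before testing. At adjusted p under 0.05, 1 of the 10 genes was called between WT cell types, 2 other eicosanoid genes between Tgfbr2-/- cell types, and 0 of the 10 and 68 genes in all for the difference.

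A model of all 15 libraries with 1 cell type effect for both genotypes called 1 of the 10 genes and 431 genes in all, with 0 other eicosanoid genes, and set beside the Tgfbr2-/- comparison it turned Hpgds (0.15), Ptgs1 (3.92) and Ptgs2 (3.27). It lost the calls of Ptgs2 between WT cell types (3.27) and of Alox5ap between Tgfbr2-/- cell types (-5.22), as it averages the genotypes. Without the experiment term, Ptgs1 in LP ILC2s was -1.50 and 2 other eicosanoid genes were called in BM ILC2p.

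Between cell types, an experiment taken alone joins LP and BM libraries that share its number, which the labels do not state to be 1 experiment. Experiment 1 alone, with fewer samples, called 0, 0 and 38 (of the 10, other eicosanoid, all genes) in BM ILC2p. It called 0 of the 10 and 5 in all between WT cell types, and 1 and 2838 between Tgfbr2-/- cell types. Ptger2 in LP ILC2s was -0.34 in experiment 1 and Ptgs2 between Tgfbr2-/- cell types 1.65. Experiment 2 alone called 0 other eicosanoid genes and 77 in all in BM ILC2p, 0 of the 10 and 40 in all between WT cell types, and 1, 0 and 44 between Tgfbr2-/- cell types. It turned Ptgs1 (-4.54) and Ptger4 (-0.35) in LP ILC2s, Hpgds (-0.75) and Alox5 (-0.51) in BM ILC2p, and Hpgds between Tgfbr2-/- cell types (0.077).

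Replicate numbers did not pair the samples: within-experiment differences of same-numbered libraries correlated at -0.061 in LP and at -0.008 and -0.037 in BM, over 8919 genes. With the replicate block, 175 genes were called in BM ILC2p and 70 for the difference (0 of the 10), and Hpgds (-0.33) and Ptger4 (-2.25) turned in BM ILC2p.

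Leaving out 1 library gave 1 to 2 other eicosanoid genes and 179 to 319 genes in all in BM ILC2p. Between WT cell types it gave 1 to 2 of the 10 genes, 0 to 1 other and 95 to 370 in all; between Tgfbr2-/- cell types 2 to 5 other and 1095 to 2384 in all; for the difference 0 to 2, 0 to 1 and 14 to 407. Signs turned for Hpgds (-1.03 to 0.30), Ptgs1 (-0.30 to 4.64), Ptger2 (-0.36 to 0.69), Ptger4 (-0.19 to 0.37) and Ltc4s (-0.56 to 2.74) in LP ILC2s, and for Hpgds (-0.68 to 6.40), Ptger4 (-1.16 to 1.77) and Alox5 (-0.20 to 0.37) in BM ILC2p. They also turned for Hpgds (-1.50 to 0.74), Ptgs2 (-0.66 to 1.23) and Ltc4s (-0.47 to 0.76) between Tgfbr2-/- cell types. None of these values had passed the test. Calls of Alox5ap in BM ILC2p and of Alox5 between cell types kept their direction in every fit.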
